A study of Rattus norvegicus with 90 samples.

Results

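Thioacetamide is an organosulfur compound that is used in rats to produce injury of the liver. The heart after a single high dose was compared here with the heart after vehicle, 24 h after the injection, in 10 of the 90 samples of the series, 5 in each group. Samples were chosen from their labels, as heart collected at 24 h from rats given either 100 mg/kg of thioacetamide (high dose) or 3 ml/kg of saline (vehicle). The 5 heart samples of 24 h from rats given 25 mg/kg (low dose), the 15 heart samples of 8 h (5 each of vehicle, low, and high dose), and the kidney and liver samples of the same 2 treatments at 24 h (10 each) served for comparison. All rats were adult male Sprague-Dawley rats, an outbred stock. They carried a catheter in the jugular vein, were injected intraperitoneally, and had no food for the last hours before collection. All 3 organs came from the same rats at each time, and rats of 8 h and 24 h were different animals. RNA was made from whole powdered heart, so that cardiac muscle, vessels, connective tissue, and blood in the chambers all contributed. Each sample was 1 rat, and in such bulk tissue fewer cells of a type and less RNA per cell cannot be told apart.

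Thioacetamide itself is not the reactive form. It is oxidized by cytochrome P450 and flavin-containing monooxygenase enzymes, which are most active in the liver, to an S-oxide and then to a reactive S,S-dioxide that binds to proteins and lipids. The hepatocytes around the central vein carry much of this activity and are the cells best known to be injured. The heart is not a classical target organ. It can be reached by the compound itself and by metabolites, hormones, cytokines, and other circulating signals from the injured organs. The study included the heart as an organ to compare with the liver and kidney. The question of this comparison was which transcripts of the heart differed in level after the high dose.

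The measurement was the abundance of 40071 annotated Ensembl transcripts of the rat by RNA-seq. The deposited tables name transcripts by identifier only, and no table used here pairs them with genes. Gene names, gene functions, gene lists, the markers of heart cell types, and sequences were therefore not analysed here. Each result concerns a transcript, and a difference may be in a gene or in 1 of its isoforms. Levels are in CPM, a transcript's counts per 1000000 transcript counts of its library after TMM scaling, which corrects each library for its composition. A transcript was called when the adjusted p-value of edgeR's quasi-likelihood test (Benjamini-Hochberg over all transcripts tested) was no more than 0.01 and the absolute natural-log fold change was at least 0.60, a 1.82-fold difference. The words rose and fell are used of called transcripts.

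Total estimated counts ranged from 20511795 to 31559509 in the 5 vehicle libraries and from 21598818 to 28904323 in the 5 high-dose libraries. Each of these 10 libraries had a Spearman correlation of at least 0.961 with every other heart library, and of at most 0.742 with any kidney or liver library of 24 h. The library numbers of the hearts of 24 h fall into 2 runs, up to 67 and from 79, which held 2 and 3 libraries of each of the 2 groups. Genomic intervals, which the deposited tables list beside the transcripts, took 11.5% to 20.9% of the counts in the first run and 5.77% to 10.5% in the second. That share was 12.7%, 16.8%, 10.5%, 6.34%, and 6.41% in the vehicle samples and 11.5%, 18.3%, 6.16%, 6.15%, and 7.97% in the high-dose samples. Of 6 measures of the libraries, none differed between the groups past a threshold of 0.05 (two-sided exact permutation test of 5 against 5, smallest adjusted p = 0.667, for the share of counts on transcripts over 5000 bases). That share was 12.3% ± 0.830 after the high dose and 13% ± 0.394 after vehicle (SD, n = 5). The smallest p this test can give is 0.00794. In the liver, vehicle replicate 1 stood apart. Its Spearman correlation was 0.910 to 0.916 with the other 4 vehicle libraries, which had 0.953 to 0.970 among themselves, and 0.931 to 0.952 with the high-dose libraries. An alternative was planned without it, on the ground that its counts are nearly those of library number 9. Library 9 was liver of 8 h after the low dose and was not used here, so this likeness was not measured. The counts of called heart transcripts in the liver are given with and without vehicle replicate 1.

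The high dose changed 162 of 17574 heart transcripts tested at 24 h (0.922%), of which 119 rose (0.677%) and 43 fell (0.245%). The median log2 fold change was 1.20 over the transcripts that rose and -1.10 over those that fell, against -0.00287 over all transcripts tested. Most of the called changes were thus near 2-fold, and the limit of 1.82-fold on a call fixed their lower end. A log2 fold change of at least 1 was seen in 89 of the 119 rises and 26 of the 43 falls. Only 7 rises and 1 fall reached 2 on the log2 scale. For all 162 called transcripts, the 5 high-dose samples lay on the same side of the 5 vehicle samples. Over all transcripts tested, this held for 816 in the higher direction (4.64%) and 654 in the lower direction (3.72%). A further 292 transcripts passed the adjusted p-value without reaching the limit on the fold change, 160 of them higher and 132 lower. With these included, 454 transcripts (2.58%) had an adjusted p of no more than 0.01, and 279 of them were higher after the high dose.

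**Figure D1:**
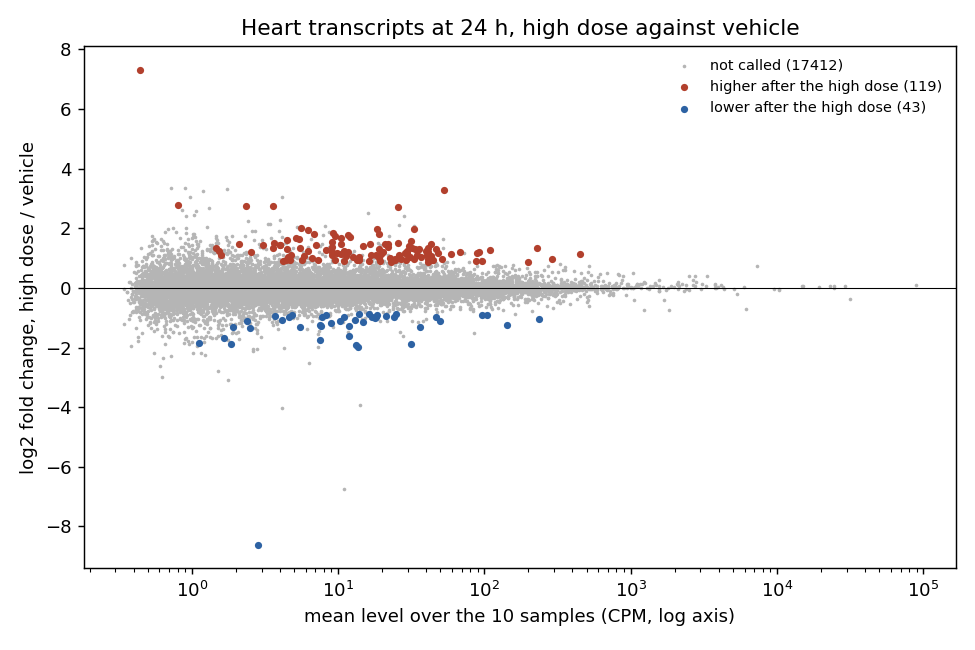
The log2 fold change of each of the 17574 heart transcripts tested (high dose over vehicle, 24 h, vertical axis) is plotted against its mean level over the 10 samples in CPM (log axis). The 119 transcripts that rose and the 43 that fell lie mainly within 2 log2 units of 0, and transcripts not called (gray) lie around 0 at all levels.

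The transcripts that changed were of moderate abundance. The mean level of the rises was 9.11 CPM after vehicle (median over 119 transcripts, quartiles 3.87 and 19.8) and 24.5 CPM after the high dose. The falls had a median of 17.6 CPM after vehicle (quartiles 7.06 and 26) and 6.46 CPM after the high dose. Over all transcripts tested the median was 10.1 CPM in both groups. Below the lower quartile of mean levels, 0.319% of transcripts were called. From there up to the median, from the median to the upper quartile, and above it, the share was 1.05%, 1.30%, and 1.02%. The transcripts above the upper quartile included 37 rises and 8 falls. The rises and falls took a small part of the measured RNA. The 119 rises accounted for 0.213% to 0.254% of scaled transcript counts in the vehicle samples and for 0.436% to 0.583% in the high-dose samples. The 43 falls accounted for 0.135% to 0.177% and 0.0547% to 0.0852%. The lengths of the rises were near those of all transcripts tested, and the falls tended to be longer. The median was 2263 bases for the rises, 2792 bases for the falls, and 2199 bases for all. The upper quartiles were 3356.5, 4654.5, and 3423.75 bases. This difference in length was not tested.

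The transcript with the largest rise among those with a mean of at least 2 CPM was ENSRNOT00000008665, of 773 bases. Its level was 9.88, 16.1, 6.29, 8.44, and 8.50 CPM in the 5 vehicle samples and 82.4, 96.7, 89.5, 94.6, and 113 CPM in the 5 high-dose samples. The lowest high-dose sample was far above the highest vehicle sample, and the high-dose samples lay close together. The log2 fold change was 3.29 ± 0.213 (SE), a 9.77-fold rise, with an adjusted p of 7.16e-05 in edgeR's test. No transcript had a smaller adjusted p, but this value was not unique to ENSRNOT00000008665. The low-dose samples had 40.1, 46.4, 13.2, 17.8, and 13.5 CPM. They spread widely, all below the high-dose samples, and the lower 3 lay within or near the range of the vehicle samples. At 8 h the level was 12.1 ± 6.21 CPM after vehicle and 35.9 ± 16 CPM after the high dose (SD, n = 5), which did not pass the test (log2 fold change 1.57, adjusted p = 0.167, edgeR). This transcript was at or near 0 in the other organs. The highest single sample was 0.0897 CPM in the kidney and 0.311 CPM in the liver.

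The second named rise was ENSRNOT00000000995, of 674 bases, which was scarce in the heart. The vehicle samples had 1.15, 0.786, 0.535, 0.339, and 0.205 CPM, and the high-dose samples had 3.79, 3.18, 4.09, 4.03, and 5.41 CPM. The groups did not overlap, and the log2 fold change was 2.76 ± 0.377 (SE, adjusted p = 0.00200, edgeR). The low-dose samples had 1.38, 3.35, 1.44, 1.82, and 1.84 CPM, all above the vehicle samples, and 1 of them within the range of the high-dose samples. This transcript varied more at 8 h. High-dose samples then had 0.176, 1.76, 5.14, 2.0, and 0.419 CPM, which overlapped with the 0.262 to 1.61 CPM of the vehicle samples. In the liver and kidney its mean level was higher than in the heart and its values overlapped between the treatments, with 0.214 to 24.9 CPM after vehicle and 6.09 to 41.2 CPM after the high dose in the liver. Vehicle replicate 1 of the liver, at 3.46 CPM, does not set that range.

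The largest fall was that of ENSRNOT00000072615, of 5130 bases, which went from a low level to almost none. Vehicle samples had 6.66, 9.44, 1.93, 4.40, and 6.04 CPM. Of the high-dose samples, 4 had a count of 0 after rounding and the other had 0.0454 CPM. Their estimated counts before rounding were 8.09e-04, 0.753, 3.42e-04, 0.415, and 0. In rounded counts, the 5 vehicle libraries held 614 and the 5 high-dose libraries 1, a ratio of 598 after scaling. Its exact 95% interval of 107 to 23664 covers counting error only. The estimated counts were mostly not whole numbers, and error in assigning reads to transcripts was not tested. The adjusted p was 1.69e-04 (edgeR). This transcript was also at or near 0 in samples of other heart groups. The low-dose samples of 24 h had 7.49, 0.172, 1.49, 8.32, and 0 CPM. The high-dose samples of 8 h had 2.12, 0, 0, 7.93, and 5.13 CPM, against 8.89, 2.98, 5.98, 1.98, and 2.27 CPM after vehicle. The low-dose samples of 8 h had 6.81, 0.315, 0.0393, 0.613, and 0 CPM. Values at 0 after rounding thus occurred in treated samples of both times and doses, and in none of the 10 vehicle hearts. No count was seen in the kidney or liver libraries of vehicle and high-dose rats at 24 h.

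The second named fall was ENSRNOT00000012757, of 4584 bases. Its level was 24.6, 29.2, 17.2, 18.4, and 20.7 CPM in the vehicle samples and 5.75, 3.31, 9.86, 5.17, and 3.49 CPM in the high-dose samples. The log2 fold change was -1.98 ± 0.281 (SE, adjusted p = 0.00229, edgeR), and the groups were well apart. The low-dose samples, with 27.6, 17.3, 20.2, 15.6, and 16 CPM, overlapped with the vehicle samples and lay above all high-dose samples. At 8 h, the 5 high-dose samples had 10.9 to 13.4 CPM and the 5 vehicle samples 15.5 to 27.4 CPM. These groups also did not overlap, but the test was not passed (log2 fold change -0.86, adjusted p = 0.0632, edgeR). In the liver this transcript fell as well, from 5.40 ± 1.71 CPM (6.11 ± 0.698 without vehicle replicate 1) to 2.31 ± 0.512 CPM (SD, n = 5, or 4 without that library). The adjusted p there was 0.00636 with all libraries and 1.45e-04 without vehicle replicate 1 (edgeR). In the kidney it did not pass the test (log2 fold change -0.40, adjusted p = 0.292, edgeR).

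**Figure D2:**
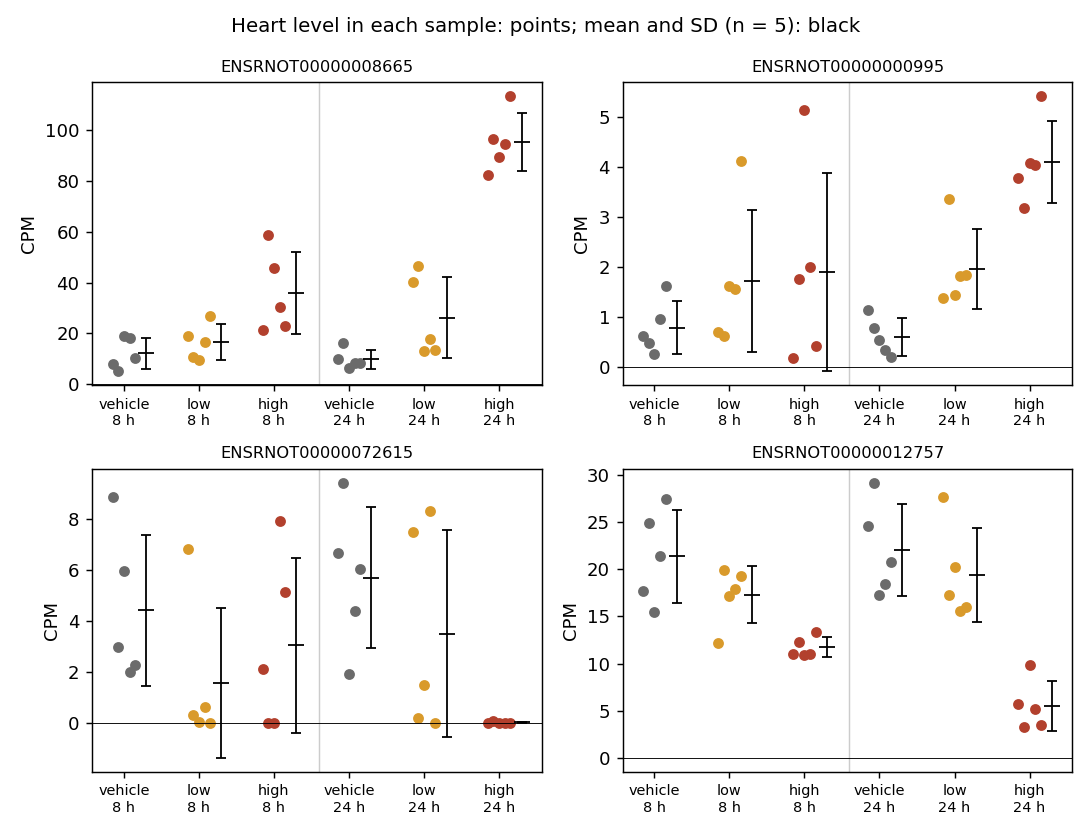
Level in CPM (vertical axis, each panel on its own scale) of the 4 named transcripts in every heart sample, by dose and time, with points for samples and black marks for the mean and SD (n = 5). ENSRNOT00000008665 stands at 82.4 CPM or above in all high-dose samples of 24 h, and ENSRNOT00000072615 is at or near 0 in all of them.

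One more rise had the largest fitted fold change but was too scarce to be named. It had no count in any vehicle sample of 24 h and 0.552 to 1.49 CPM in the high-dose samples, which is at least 32.8-fold higher when the vehicle group is set to 3 counts in all. It was not silent in other vehicle hearts, since those of 8 h had 0 to 0.954 CPM.

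The called transcripts were also summarized per sample. Relative to the vehicle mean of the same time, the median log2 level of the 119 rises was 0.92 to 1.31 in the 5 high-dose samples and -0.06 to 0.13 in the vehicle samples. The median of the 43 falls was -1.18 to -0.83 and -0.12 to 0.23. These values describe the separation that the choice of the transcripts fixed. Single called transcripts varied somewhat more between rats than transcripts in general, with a median SD of log2 levels of 0.30 for the rises and 0.25 for the falls in the high-dose samples, against 0.18 over all transcripts tested. The low-dose samples lay at 0.35 to 0.59 for the rises and at -0.53 to -0.28 for the falls. In both sets each low-dose sample was thus between the vehicle samples and the high-dose samples. The vehicle samples from which these values are measured took part in the choice, so the position of the low-dose samples is not independent of it. Within the run of libraries numbered up to 67, the median log2 fold change between high dose and vehicle was 1.28 for the rises and -1.30 for the falls. Within the run numbered 79 and above it was 1.13 and -1.03. The same samples chose the transcripts, so these values describe the runs and are no test.

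**Figure D3:**
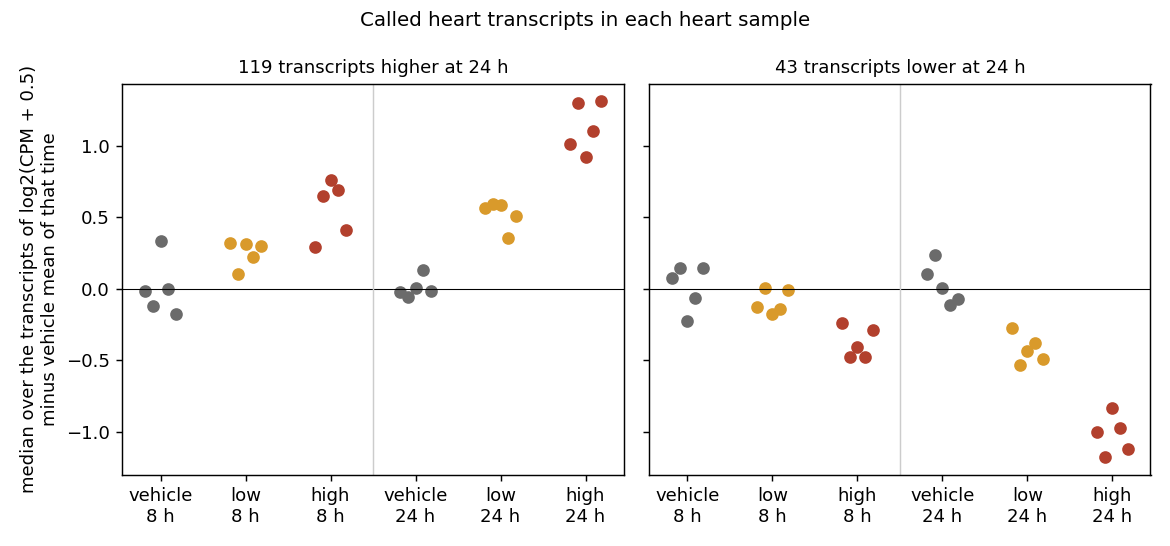
For each heart sample, the point gives the median over the 119 transcripts that rose (left) or the 43 that fell (right) of log2(CPM + 0.5) minus the vehicle mean of that time. At 24 h the low-dose samples lie at 0.35 to 0.59 on the left and at -0.53 to -0.28 on the right, and the high-dose samples of 8 h lie at 0.29 to 0.76 and at -0.48 to -0.24.

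No transcript was called for the low dose against vehicle at 24 h (0 of 17707 tested, edgeR) or for the high against the low dose (0 of 17642). At an unadjusted p under 0.05 there were 1624 and 1962 transcripts, and DESeq2 called 7 and 33. These comparisons share the vehicle or the high-dose samples with the main one, so their values are only set side by side. For the rises, the median log2 fold change was 0.62 for low dose over vehicle (117 tested there) and 0.60 for high over low dose (119 tested). For the falls, it was -0.46 (43 tested) and -0.71 (42 tested). Over the transcripts of the main comparison it was near 0 in both cases (0.00344 and -0.00372).

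At 8 h, in other rats, the high dose changed few transcripts, but those called at 24 h tended in the same direction. Of 17519 transcripts tested at 8 h, 3 were called (0.0171%), all of them higher. That count was 1 without vehicle replicate 3 or 4 of 8 h and 6 without high-dose replicate 1 of 8 h. Of the 119 rises of 24 h, 118 were tested at 8 h, and all 118 were higher after the high dose, with a median log2 fold change of 0.58. Of the 43 falls, 41 were lower, with a median of -0.43. Over all transcripts tested at both times, 61.6% had the same direction, and the median at 8 h was -0.00124. The 5 high-dose samples of 8 h lay above all vehicle samples of 8 h for 26 of the 119 rises (21.8%) and below them for 6 of the 43 falls (14%). Over all transcripts the shares were 1.20% and 1.10%. Per sample, the median of the rises was 0.29 to 0.76 in the high-dose hearts of 8 h and -0.18 to 0.34 in the vehicle hearts, so the highest vehicle sample overlapped with the lowest high-dose sample. The median of the falls was -0.48 to -0.24 and -0.22 to 0.15, without overlap.

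Of the 3 transcripts called at 8 h, 2 rose at both times. They are described here by their length, and they were chosen after their values were seen. The first, of 2643 bases, had 9.48, 7.75, 7.81, 8.03, and 7.53 CPM in the vehicle samples of 24 h and 13.3, 20.1, 22, 32, and 19.7 CPM in the high-dose samples. Its log2 fold change was 1.40 at 24 h (adjusted p = 0.00213) and 1.68 at 8 h (adjusted p = 0.00203, edgeR), where the high-dose samples had 21 to 32.7 CPM and the vehicle samples 6.60 to 10.8 CPM. It also rose in the kidney at 24 h, with a log2 fold change of 0.93 (adjusted p = 3.16e-04, edgeR). It was not called in the liver, where the log2 fold change was 0.20 (adjusted p = 0.693, edgeR), or 0.67 without vehicle replicate 1, under the limit on the fold change. The second, of 2995 bases, had 11.9, 12.4, 12.3, 14.6, and 12.3 CPM after vehicle and 18.3, 33.5, 31.1, 24.9, and 18 CPM after the high dose. Its log2 fold change was 0.99 at 24 h (adjusted p = 0.00714) and 0.93 at 8 h (adjusted p = 0.00194, edgeR). It was not called in the kidney (log2 fold change 0.58, adjusted p = 0.194) or in the liver with all libraries (1.78, adjusted p = 0.0166), and rose in the liver without vehicle replicate 1 (2.47, adjusted p = 6.08e-05, edgeR). In both transcripts the high-dose samples of 24 h spread more widely than those of 8 h, while the vehicle samples stayed close together. At 24 h the call of the second was lost in 14 of 24 other settings, over which its adjusted p ranged from 3.99e-06 to 0.222, and that of the first in 3. At 8 h the call of the first was lost in 5 of 14 other settings and that of the second in 1. Their highest adjusted p there was 0.0126 and 0.0117 (edgeR). The third transcript called at 8 h had a log2 fold change of 1.09 at 24 h, where it did not pass the test (adjusted p = 0.0155, edgeR).

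The difference between the effects at 24 h and 8 h was itself tested, over 20 samples. Rats of 8 h were injected in the morning and had no food afterwards. Those of 24 h were injected in the late afternoon and had food until the last hours. Time after injection thus cannot be told apart from clock time of injection and feeding. The interaction was called for 1 of 18543 transcripts (0.00539%) at an adjusted p of no more than 0.01, and at an unadjusted p under 0.05 there were 1553. Of the 162 called transcripts, none had a called difference (edgeR, smallest adjusted p = 0.158), while 74 of the 119 rises and 31 of the 43 falls had an unadjusted p under 0.05. DESeq2 called 6 of the rises and 5 of the falls, against 38 of all 18543 transcripts (adjusted p NA for 2523). The fitted effect was larger at 24 h for 111 of the rises and all 43 falls. The transcripts were chosen on the samples of 24 h, which enter this difference, so its direction is not independent of the choice. The 1 transcript with a called interaction, of 1212 bases and described because it was the only one, was higher at 24 h and not at 8 h. It had 9.48, 9.89, 10.4, 10.4, and 9.94 CPM after vehicle and 14.4, 16.4, 14.1, 16.1, and 14.6 CPM after the high dose. At 8 h it had 8.80 to 11.1 CPM after vehicle and 8.12 to 9.93 CPM after the high dose. The difference of its log2 fold changes was 0.81 ± 0.105 (SE, adjusted p = 0.00574, edgeR), and its log2 fold change at 24 h was 0.59, which was under the limit of the main comparison. Leaving out 1 library left no call in 17 of 20 fits (edgeR), with 1297 to 1720 transcripts at an unadjusted p under 0.05 over the 20 fits.

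In the kidney of the same rats, the rises of the heart were mostly higher as well. Of the 119, 112 were tested in the kidney, 107 of them were higher after the high dose, and 39 rose, where 2.15% of all kidney transcripts tested did (4.19% were called in either direction). None fell, and the median log2 fold change was 0.94. Of the 43 falls of the heart, 37 were tested, 27 were lower, and 7 fell, against 2.04% of all kidney transcripts. The median of the falls was -0.46. Over the 16334 transcripts tested in both organs, 360 rose and 202 fell in the kidney, and 57% had the same direction. Because the organs came from the same rats, the kidney is not an independent sample of animals.

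In the liver, most of the rises of the heart were also higher. More of the falls were higher than lower, as were transcripts in general. Of the 110 rises tested in the liver, 89 were higher, 28 rose (7.44% of all liver transcripts rose) and 7 fell (8.85% of all fell). The median log2 fold change was 0.86. Only 28 of the 43 falls could be tested in the liver, of which 17 were higher and 11 lower, with a median of 0.61. Among these, 4 rose and 7 fell. Over all transcripts of the heart tested in the liver, 8736 of 15089 were higher, 1144 rose, and 1045 fell. Of these 15089, 52.6% had the same direction, and the median was 0.13. Without liver vehicle replicate 1, 86 of 111 rises were higher, with 52 that rose and 7 that fell and a median of 0.98. The falls then had 17 of 28 higher, a median of 0.93, 7 that rose and 9 that fell. Over all transcripts of the heart tested there, 8144 of 15322 were then higher, 2059 rose, and 1769 fell. The called share over all liver transcripts went from 16.3% to 26.8% when that library was left out.

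**Figure D4:**
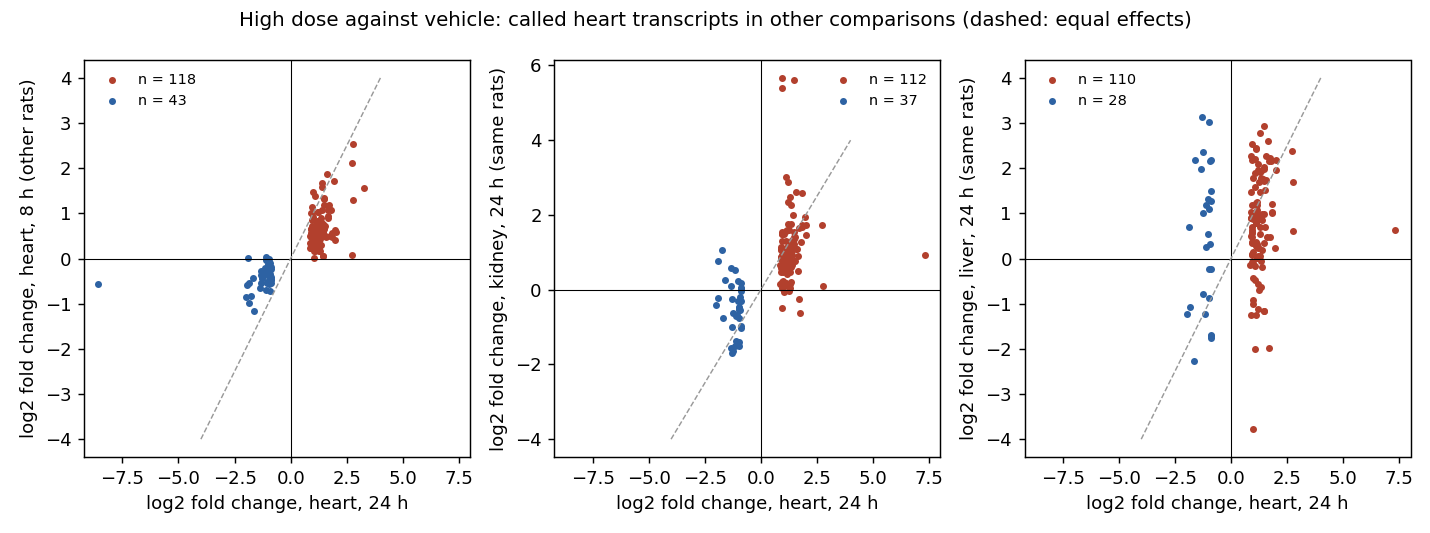
Log2 fold change after the high dose of each called heart transcript at 24 h (horizontal axis) against its value in the heart at 8 h, the kidney at 24 h, and the liver at 24 h (vertical axes), in red for transcripts that rose and in blue for those that fell, with a dashed line at equal effects. All 118 rises tested lie above 0 in the heart at 8 h, as do 107 of 112 for the kidney and 89 of 110 for the liver, while 17 of 28 falls lie above 0 for the liver.

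The effects were also compared between organs by interaction. These fits take the 20 libraries of each as independent, although the organs came from the same rats. A block for the rat was inferred from library numbers and was available for 8 rats with the kidney and 9 with the liver. With it, 179 of 20576 transcripts (0.870%) differed between heart and kidney and 1397 of 19820 (7.05%) between heart and liver. The same samples without the block gave 692 (3.36%) and 2620 (13.2%, edgeR). Of the called heart transcripts, 6 rises and 3 falls differed from the kidney with the block, and 24 rises and 8 falls from the liver. The heart and kidney differed for 706 of 20475 transcripts (3.45%), and among the called heart transcripts for 14 of the 119 rises and 8 of the 43 falls. The larger log2 fold change was that of the heart for 9 of those 14 rises and that of the kidney for 5, and all 8 falls had the lower one in the heart. Without kidney high-dose replicate 4, the counts were 1393 over all transcripts, 18 rises, and 9 falls. Over the 17574 transcripts of the main comparison, the share was then 7.74%. The heart and liver differed for 2919 of 19584 transcripts (14.9%), and for 29 of the rises and 14 of the falls. All 29 of these rises were higher in the heart and all 14 falls lower in the heart. Without liver vehicle replicate 1, the counts were 5646 of 19908 (28.4%), 46 rises, and 17 falls, and 16 of the 46 rises then had the larger log2 fold change in the liver. The heart samples that chose the transcripts enter these differences too, so a larger effect in the heart is in part fixed by the choice.

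The usual organ of the transcripts differed between the rises and the falls. In vehicle rats at 24 h, the mean level in CPM was highest in the liver for 59 of the 119 rises (49.6%), in the heart for 38 (31.9%), and in the kidney for 22 (18.5%). For the falls, it was highest in the heart for 30 of 43 (69.8%), in the kidney for 9 (20.9%), and in the liver for 4 (9.30%). Over all heart transcripts tested, the shares were 15.1% for the liver, 36.8% for the heart, and 48.1% for the kidney. Of the falls, 14 (32.6%) had a vehicle level in the heart over 5 times that in both other organs, against 9 of the rises (7.56%) and 7.66% of all. Without liver vehicle replicate 1, the liver was the highest organ for 47 rises (39.5%) and 5 falls (11.6%), against 14% of all, and the heart for 44 rises (37%) and 29 falls (67.4%), against 37.3% of all. These shares describe the lists and were not tested, and the vehicle hearts that set the order also chose the transcripts. Scaling was done within each organ, so an order between organs is only approximate.

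The first principal component of the 15 heart libraries of 24 h, from log2 levels of all transcripts tested, held 14.4% of their variance and followed the dose. Its score was -0.171 to -0.105 in the vehicle samples, -0.102 to 0.0868 in the low-dose samples, and 0.0394 to 0.241 in the high-dose samples. The high dose and vehicle did not overlap on it, and low-dose samples overlapped with high-dose samples. The second component, with 12%, followed the runs of library numbers instead. Its score was 0.0469 to 0.213 in libraries numbered up to 67 and -0.249 to 0.00143 in those numbered 79 and above.

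The number of called transcripts depended on single samples. Leaving out 1 replicate gave between 92 and 175 called transcripts. The count fell by more than 1.5 times without vehicle replicates 1, 2, or 3 (94, 92, and 92) and without high-dose replicate 2 (to 63.6% of the main count). A core of 71 transcripts, 56 rises and 15 falls, was called whichever replicate was left out. Of these, 57 were also called by DESeq2, with the other scaling, without a filter, with limma on TPM at both pseudocounts, and with a term for the run of library numbers. With that term, 149 transcripts were called, 143 of them among the 162. With the interval share of each library as a covariate, 150 were called, 140 of them among the 162. Within the runs alone the groups were small. Libraries numbered 79 and above, 3 against 3, gave 1 called transcript, and those up to 67, 2 against 2, gave 0 (edgeR, with 2442 and 2569 at an unadjusted p under 0.05).

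**Figure D5:**
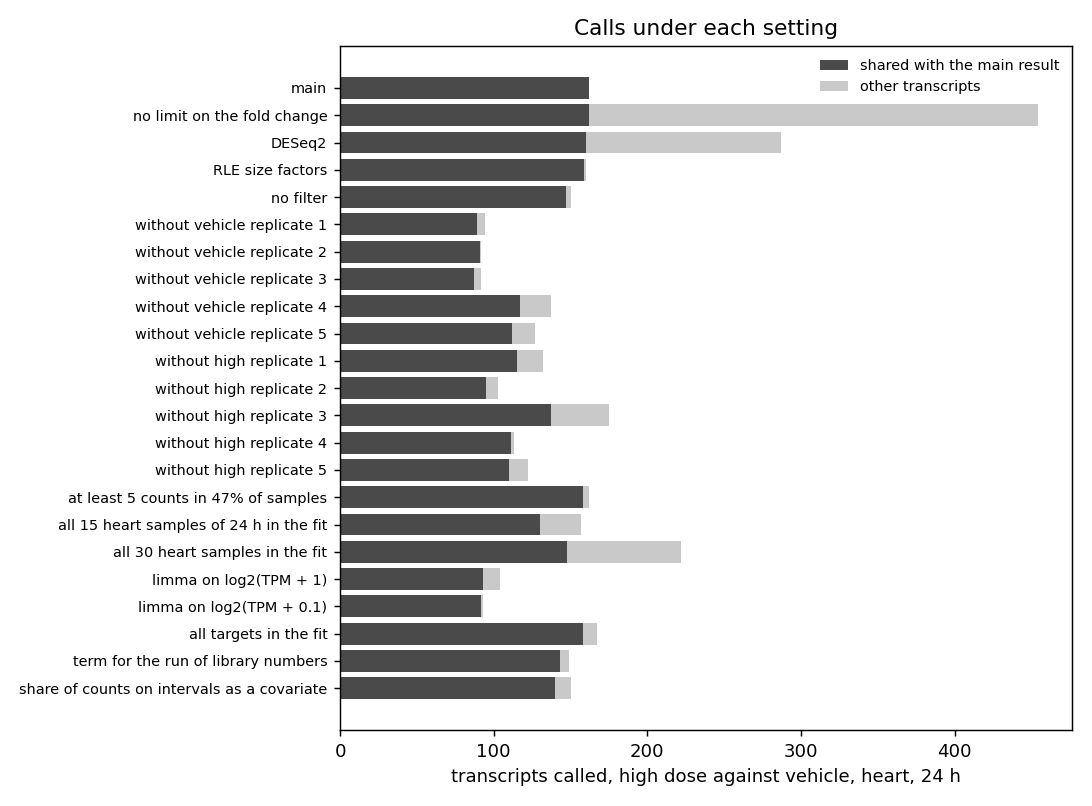
Number of heart transcripts called for the high dose against vehicle at 24 h (horizontal axis, from 0) in each of 22 settings and the main result of 162, split into those shared with the main result (dark) and others (light). Counts range from 92 with 1 vehicle replicate left out to 454 without a limit on the fold change.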

How the data were processed

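The authors prepared stranded poly-A libraries, sequenced them as 75 bp paired-end reads, and quantified them with Kallisto (0.42.2 in the submitters' processing notes, with the Rnor_6.0 build) against Ensembl transcripts. The deposited tables give an estimated count, TPM (scaled by target length, made by the authors' tool) and length for 40071 transcripts and 25095 genomic intervals in each sample. Here the estimated counts of transcripts, as deposited, were rounded to whole numbers and analysed in R 4.3.3 with edgeR 4.0.16, with TMM scaling, the default low-count filter of the tool, and quasi-likelihood tests with Benjamini-Hochberg adjustment. Each comparison used only the groups it names, 5 samples a group, and differences between effects were tested as interactions over 20 samples. The study's own tool works on resampled estimates, which were not used here. Standard errors were taken from the fold change and its test statistic. CPM were scaled over the 30 heart libraries together and within the kidney and liver libraries of 24 h. The 6 library measures were compared with two-sided exact permutation tests in scipy 1.17.1.

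The samples were mapped to groups by their titles. Replicates were numbered in order of deposit. Heart libraries were checked for repeats, and no 2 had more than 3.67% of transcripts within 1 count of each other, among those with at least 10 counts in either. The rule for named transcripts took the 2 largest rises and 2 largest falls among called transcripts whose mean was 2 CPM or more, with no overlap between the groups. This rule, the tests, and the sets compared were chosen with earlier results of these data known. Alternatives were DESeq2 1.42.0, limma 3.58.1 on the deposited TPM as log2(TPM + 1) and log2(TPM + 0.1), RLE size factors, other filters (none, or at least 5 counts in 47% of the samples), no limit on the fold change, all 15 or all 30 heart samples or all targets in the fit, a term for the run of library numbers, and leaving out each replicate. Alternatives chosen after seeing the data were each run of library numbers alone, the interval share of each library as a covariate, other called sets for the shares at 8 h and in the kidney and liver, and organs paired by library number. The test was tried on simulated data before use. The other 40 libraries of the series were not used here. Intervals cover counting error only.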

Additional observations from a re-analysis of the deposited data

Results flagged for a closer look

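The high-dose effects at 24 h differed between organs for many transcripts by the interaction test. Heart and kidney differed for 706 of 20475 transcripts (3.45%) and heart and liver for 2919 of 19584 (14.9%), or 5646 of 19908 (28.4%) without liver vehicle replicate 1. Among the 162 called heart transcripts, 22 differed from the kidney and 43 from the liver, or 63 without that library. The heart samples that chose these transcripts enter the differences. Between 24 h and 8 h in the heart, 1 transcript differed, that of 1212 bases described in the report, with a log2 difference of 0.81 between the times. The same transcript differed between heart and liver by 1.29 (1.38 without liver vehicle replicate 1). Its log2 fold change in the liver was -0.59 (-0.75 without that library).

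Signal outside the transcripts was seen as well. In a fit of all targets together, 17 of 8171 genomic intervals tested (0.208%) were called for the high dose against vehicle in the heart at 24 h, 11 higher and 6 lower. The share of counts on all intervals differed between the runs of library numbers, as given above, and its part in these calls was not tested.

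A single sample was flagged as apart from the others of its group in 5 of 53 groups of 5 checked, where chance flags about 1 in 20. One was the low-dose sample of ENSRNOT00000000995 at 3.35 CPM. Another was the only high-dose sample of ENSRNOT00000072615 with a count after rounding (0.0454 CPM), a flag that depends on the rounding. The highest vehicle samples of the transcripts called at both times were also flagged. Those were 14.6 CPM for the transcript of 2995 bases (replicate 4) and 9.48 CPM for that of 2643 bases (replicate 1). The last was vehicle replicate 2, with 23% of its transcript counts on transcripts under 1000 bases.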

How the results depend on the processing

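For the high dose against vehicle at 24 h, 454 transcripts were called without a limit on the fold change, 287 by DESeq2, 104 and 93 by limma with pseudocounts of 1 and 0.1, 1 in libraries numbered 79 and above alone, 0 in those up to 67 alone, and 92 to 175 with a replicate left out. The other alternatives gave counts within 1.5 times the main one. DESeq2 called 33 for high against low dose, 7 for low dose against vehicle, 41 at 8 h, 38 for the difference between times, and 1376 for that between heart and kidney. Its adjusted p was NA for 3083, 2758, 1024, 2523, and 827 transcripts. Without a limit, 5 were called at 8 h. Of the difference between times, 0 calls were left with a limit of 0.60 on its natural log and 0 without a filter (smallest adjusted p 0.0121, edgeR, 2252 at an unadjusted p under 0.05). The difference between heart and kidney had 453 calls with that limit. Leaving out replicates gave 0 to 0 calls for high against low dose (1620 to 2146 at an unadjusted p under 0.05) and for low dose against vehicle (1327 to 1824), 1 to 6 at 8 h, 0 to 1 for the difference between times, 499 to 1393 for heart against kidney, and 2323 to 5646 for heart against liver, the last without liver vehicle replicate 1. The cause of these shifts was not tested. Of the 4 named transcripts, ENSRNOT00000008665 kept its call in 23 of 24 settings and each of the others in 22, and those lost were within single runs of library numbers, with fewer samples. ENSRNOT00000072615 had a log2 fold change of -10.00 to -1.03 over the settings, which depends on the pseudocount. No library measure passed its test under any alternative.

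Within the heart, samples could not be paired, because the library numbers in the titles are not shared between groups. For the organs, numbers 30 apart (kidney) or 60 apart (liver) from the heart's may mark the same rat, which the labels do not state, and this alternative was chosen after seeing the data. With a replicate block for the rat, heart and kidney differed for 179 transcripts (0.870%, 8 rats) against 692 (3.36%) in the same samples without it. Heart and liver differed for 1397 (7.05%, 9 rats) against 2620 (13.2%). Without liver vehicle replicate 1, heart and liver differed for 3969 of 19628 transcripts with the block (20.2%, 8 rats) and 5107 (26%) without it. Among the called heart transcripts, 41 rises and 12 falls then differed with the block. Deviations from the group means correlated between such paired libraries at -0.0779 to 0.0887 for the kidney and -0.0766 to 0.178 for the liver. Libraries not so paired had -0.132 to 0.139 and -0.121 to 0.0951. The medians were 0.0190 paired and -0.0137 unpaired for the kidney, and 0.0450 and -0.00592 for the liver. The ranges overlapped, although the highest paired value of the liver lay above all unpaired ones, so the data do not settle the pairing by themselves. Sums per gene were not run, as no table pairs the transcripts with genes. With 5 rats a group and 20511795 to 31559509 counts a library, 0.319% of transcripts were called below the lower quartile of levels.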
